A study of Mus musculus with 10 samples.

Results

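The genes described here were set together as genes that restrain growth or survival and whose mRNA estrogen lowers in breast cancer cells. They were chosen with earlier results of these data known. BLNK, a signalling adaptor, and LAMB2, a laminin chain, are better known for other roles. The set named 10 genes: CCNG2, TXNIP, YPEL3, BTG1, BTG2, PDCD4, ARRDC3, ARRDC4, BLNK and LAMB2. Its members were the probe sets whose annotation gave exactly 1 of these symbols, which were 25 of the 61359 probe sets on the array. These 25 probe sets covered 9 genes, with 7 for PDCD4, 5 for CCNG2, 3 each for TXNIP, YPEL3 and BTG1, and 1 each for ARRDC3, ARRDC4, BLNK and LAMB2. BTG2 had no such probe set and was not analysed here.

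The estrogen receptor is a transcription factor that estrogen switches on, and in breast cancer cells it raises genes of growth while it lowers others that slow the cell cycle or favor cell death. Cyclin G2, BTG1 and YPEL3 hold cells back from division, TXNIP blocks thioredoxin and glucose uptake, and PDCD4 blocks the RNA helicase that starts translation. TXNIP, ARRDC3 and ARRDC4 are alpha-arrestins, adaptors that bring membrane proteins to ubiquitin ligases, while BLNK is a signalling adaptor best known from B cells and LAMB2 is a laminin chain of the basement membrane.

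The samples were human estrogen receptor positive breast cancer cells that had grown in female nu/nu mice, which lack a working thymus, and the labels give an age of 20 weeks for the hosts. All mice received an estrogen pellet, which the withdrawn mice lost 1 week before collection, so no group grew without estrogen from the start. Cells were collected by laser capture from frozen sections of axillary lymph node metastases and of primary mammary gland tumors, and the labels record PCR amplification of their RNA. The 10 arrays came from 6 mice: lymph nodes of mice 6, 11 and 14 (n = 3) with estrogen and of mice 9, 10 and 19 (n = 3) after withdrawal, and primary tumors of mice 11 and 14 (n = 2) with estrogen and of mice 10 and 19 (n = 2) after withdrawal. Values are the authors' log2 signal, on which 1 unit is a 2-fold difference, and a negative difference means a lower signal with estrogen. In such captured samples, fewer cells of a type and less RNA per cell cannot be told apart.

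The arrays were not alike in range. The 99th percentile of signal was 9.44 and 10.04 on the arrays of estrogen-treated primary tumors and between 11.39 and 11.67 on the other 8. The first principal component, with 45.4% of the variance, set these 2 arrays and the node array of mouse 11 with estrogen (107.8 to 123.4) apart from the other 7 (−94.7 to 18.3). The 18 hybridization control probe sets averaged 12.04 to 12.47 on 4 arrays and 9.47 to 10.59 on 6. In the primary tumors this split fell together with the pellet, so the pellet and the split cannot be told apart there, while each node group held arrays of both kinds. Every comparison was therefore also made after quantile normalization, which gives all arrays 1 distribution. Markers of luminal breast epithelium, the labelled cell type, averaged 8.07 to 10.54 per array, against 2.53 to 2.97 for T cell, 2.45 to 3.17 for myeloid, 2.87 to 3.29 for stromal and 3.05 to 3.92 for endothelial markers. The host's cells are mouse and the probe sets are human, and how well these read mouse RNA was not tested. GREB1, a gene that estrogen induces, was 2.63 ± 0.51 (SE) higher with the pellet over both sites (adjusted p = 0.0247 in limma). It was between 2.31 and 3.00 higher with any 1 array left out. The call was lost without the node of mouse 6, 9 or 10 (adjusted p from 0.0541 to 0.0656) and without any 1 primary tumor array. Over both sites 3 of its 4 probe sets were higher, but in nodes 3 of the 4 were lower. With the mean of all its probe sets GREB1 was 0.69 higher. Other genes that estrogen induces went both ways, as given in the last section.

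All 9 measured genes had a lower mean signal with estrogen than after withdrawal at both sites, where 52.2% of all genes did in nodes and 55.9% in primary tumors. Because the set was chosen with earlier results known, this and later shares of all genes describe it and do not test it. In the primary tumors CCNG2, TXNIP and LAMB2 fell by 3.86, 3.74 and 1.96 in the deposited values, with 6.94% of all genes called lower, and averaged over both sites BLNK fell as well. After quantile normalization CCNG2 alone kept its primary tumor call and BLNK lost its own, and with any 1 primary tumor array left out no member was called at that site (3 to 7 of 9 at an unadjusted p below 0.05). In the lymph nodes no member passed the test, although 5 of them, CCNG2, TXNIP, YPEL3, BLNK and LAMB2, were lower in each of the 3 mice with estrogen than in any of the 3 after withdrawal, as 5.46% of all genes were. LAMB2 and YPEL3 gave more signal in the node than in the primary tumor of the same mouse in 4 of 4 mice. The share of all genes that did so was not counted. Of these 2, LAMB2, with estrogen and as deposited, passed the site test, with 7.81% of all genes called higher.

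**Figure D1:**
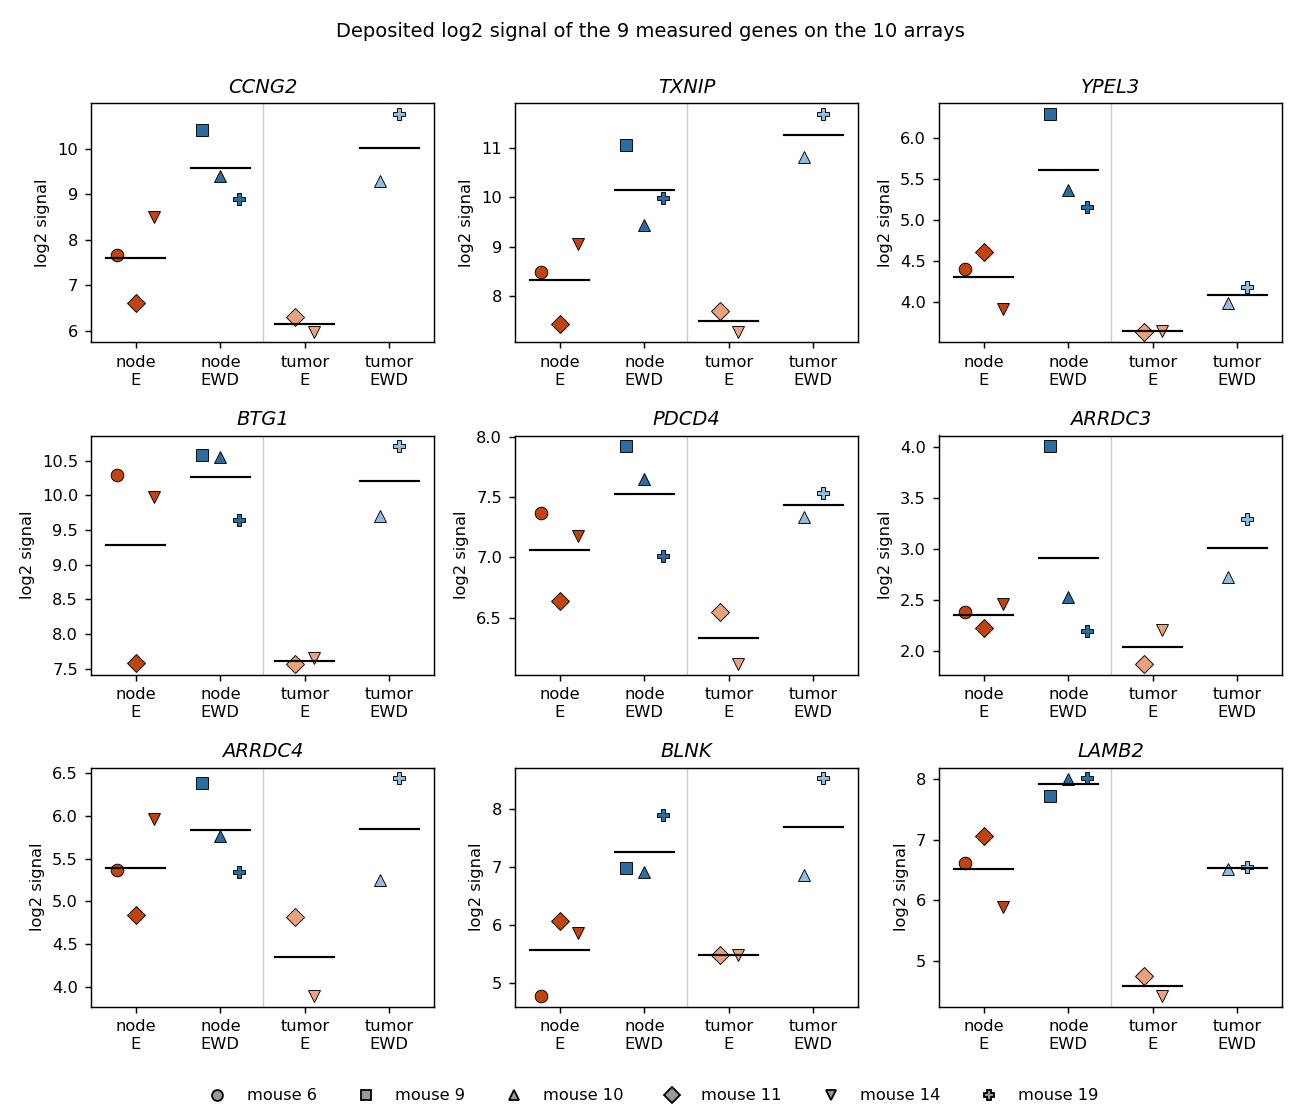
Deposited log2 signal (y axis) of the 9 measured genes in the 4 groups (x axis: node or primary tumor, E with the estrogen pellet, EWD withdrawn), 1 symbol per array with its shape for the mouse and a line at the group mean. CCNG2 lies lowest in the 2 estrogen-treated primary tumors, and LAMB2 and YPEL3 lie higher in nodes than in primary tumors of the same pellet state.

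Among the genes that slow the cell cycle, CCNG2 encodes cyclin G2, an unusual cyclin that is most abundant in resting cells. In lymph nodes its log2 signal was 7.66, 6.60 and 8.51 in mice 6, 11 and 14 with estrogen and 10.41, 9.41 and 8.90 in mice 9, 10 and 19 after withdrawal. In primary tumors it was 6.31 and 5.98 in mice 11 and 14 with estrogen and 9.29 and 10.76 in mice 10 and 19 after withdrawal. At each site every array with estrogen lay below every array after withdrawal, and the lowest values were the 2 estrogen-treated primary tumors. The difference was −1.98 ± 0.58 (SE) in nodes (95% interval −3.30 to −0.66, adjusted p = 0.575) and −3.86 ± 0.71 in primary tumors (−5.48 to −2.24, adjusted p = 0.0204). After quantile normalization it was −1.80 in nodes (adjusted p = 0.417) and −2.96 ± 0.57 in primary tumors (adjusted p = 0.0481). By this probe set and with all arrays, CCNG2 thus fell in the primary tumors on both scales. With the mean of all its probe sets CCNG2 was not called there.

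BTG1 encodes an antiproliferative protein that binds the enzymes that shorten poly(A) tails. Its node values with estrogen were 10.30, 7.59 and 9.97 in mice 6, 11 and 14, and after withdrawal 10.59, 10.56 and 9.64 in mice 9, 10 and 19. The node groups overlapped, and mouse 11 lay below all other nodes. In primary tumors BTG1 was 7.57 and 7.65 with estrogen and 9.71 and 10.70 after withdrawal, with no overlap. The difference was −0.97 ± 0.67 in nodes (adjusted p = 0.927; −0.13 without mouse 11) and −2.61 ± 0.82 in primary tumors (adjusted p = 0.0842), and neither passed the test. After quantile normalization the primary tumor difference was −1.37 (adjusted p = 0.258).

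YPEL3 encodes a small nuclear protein whose overexpression drives human cells into senescence. Its node values were 4.40, 4.61 and 3.91 in mice 6, 11 and 14 with estrogen and 6.28, 5.37 and 5.16 in mice 9, 10 and 19 after withdrawal. Primary tumor values were 3.64 in both mice with estrogen and 3.99 and 4.18 after withdrawal. Unlike CCNG2 and BTG1, YPEL3 had its highest values in the withdrawn nodes, and the primary tumors of both states lay within a narrow range. The difference was −1.30 ± 0.32 in nodes (95% interval −2.02 to −0.57, adjusted p = 0.42) and −0.43 ± 0.39 in primary tumors (−1.32 to 0.45, adjusted p = 0.538).

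TXNIP encodes the thioredoxin-interacting protein, an alpha-arrestin that rises with glucose and limits its uptake. In nodes its signal was 8.48, 7.43 and 9.06 in mice 6, 11 and 14 with estrogen and 11.05, 9.43 and 9.97 in mice 9, 10 and 19 after withdrawal. In primary tumors it was 7.70 and 7.28 with estrogen and 10.82 and 11.68 after withdrawal. The groups did not overlap at either site. TXNIP differed by −1.83 ± 0.52 in nodes (95% interval −3.01 to −0.65, adjusted p = 0.542) and fell by 3.74 ± 0.64 in primary tumors (interval of the difference −5.19 to −2.29, adjusted p = 0.0166). After quantile normalization the primary tumor difference was −2.45 ± 0.54 and no longer passed the test (adjusted p = 0.0612).

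ARRDC4, an alpha-arrestin that glucose induces as it does TXNIP, had node values of 5.37, 4.84 and 5.96 with estrogen and 6.38, 5.76 and 5.35 after withdrawal. Its primary tumor values were 4.81 and 3.89 with estrogen and 5.24 and 6.44 after withdrawal. The node groups overlapped and the primary tumor groups did not. The difference was −0.44 ± 0.44 in nodes (adjusted p = 0.95; −0.16 without mouse 9 or 11) and −1.48 ± 0.54 in primary tumors (adjusted p = 0.13; −0.88 without mouse 19). ARRDC3, which in breast cancer cells targets integrin beta-4 for degradation, was the dimmest member, with values from 1.88 to 4.01 around a mean of 2.59. Only the withdrawn node of mouse 9 (4.01) and the withdrawn primary tumor of mouse 19 (3.30) stood above 3 log2 units. Its difference was −0.55 ± 0.43 in nodes (adjusted p = 0.941; −0.0075 without mouse 9) and −0.95 ± 0.53 in primary tumors (adjusted p = 0.296).

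PDCD4, the inhibitor of translation initiation, stayed between 6.12 and 7.92 on all arrays. Its node values were 7.37, 6.64 and 7.18 with estrogen and 7.92, 7.65 and 7.01 after withdrawal, and its primary tumor values were 6.55 and 6.12 with estrogen and 7.34 and 7.53 after withdrawal. The node groups overlapped. The difference was −0.46 ± 0.30 in nodes (adjusted p = 0.927) and −1.10 ± 0.36 in primary tumors (adjusted p = 0.0974). After quantile normalization the primary tumor difference shrank to −0.28 ± 0.27 and the groups overlapped there too (adjusted p = 0.571).

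BLNK, the adaptor that links the B cell receptor to its downstream enzymes, gave node values of 4.79, 6.08 and 5.87 in mice 6, 11 and 14 with estrogen and 6.98, 6.92 and 7.90 in mice 9, 10 and 19 after withdrawal. In primary tumors it was 5.48 in both mice with estrogen and 6.87 and 8.53 after withdrawal. At neither site did the groups overlap. The difference was −1.69 ± 0.51 in nodes (95% interval −2.84 to −0.53, adjusted p = 0.587) and −2.20 ± 0.62 in primary tumors (−3.62 to −0.79, adjusted p = 0.0642; −1.27 without mouse 19). BLNK is a B cell gene and nodes hold B cells, which here are those of the mouse host, while the probe sets are human. Low marker values therefore cannot show that few B cells were captured. The B cell markers are given beside BLNK with this limit. Their mean per array was 2.89 to 3.34 over the 9 of 10 listed markers with a probe set, all of which passed the filter on dim genes. The values of MS4A1 were 2.08 to 2.74, of CD79B 2.61 to 3.54, of PAX5 3.25 to 3.53 and of CD22 2.38 to 3.56, while CD79A reached 3.73 to 6.52. In nodes 8 of these 9 markers were higher with estrogen and 1 was lower, and limma called none (0 at an unadjusted p below 0.05).

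LAMB2 encodes the laminin beta-2 chain. Its node values were 6.61, 7.07 and 5.88 in mice 6, 11 and 14 with estrogen and 7.73, 8.0 and 8.01 in mice 9, 10 and 19 after withdrawal. Its primary tumor values were 4.74 and 4.42 with estrogen and 6.52 and 6.55 after withdrawal. The withdrawn arrays of each site lay close together, with an SD of 0.163 in nodes (n = 3), and the groups did not overlap at either site. The difference was −1.39 ± 0.30 in nodes (95% interval −2.07 to −0.71, adjusted p = 0.292), the smallest adjusted p of any member there. LAMB2 fell by 1.96 ± 0.37 in primary tumors (interval of the difference −2.79 to −1.13, adjusted p = 0.0209), and after quantile normalization this difference was −1.61 ± 0.48 (adjusted p = 0.115).

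Taken by comparison, limma called 0 of the 9 genes in the lymph nodes at an adjusted p below 0.05, where 0% of the 17170 genes tested were called lower. All 9 differences were below 0, as were 52.2% of those of all genes. At an unadjusted p below 0.05, 5 of the 9 were lower, against 3.74% of all genes. The groups did not overlap for 5 of the 9, each lower with estrogen, and 5.46% of all genes were lower without overlap. The median difference of the 9 genes was −1.30 and that of all genes −0.02. After quantile normalization the same 5 genes were lower without overlap, against 5.63% of all genes, and the median of the members was −1.10. The members were also read within each kind of array. Among the nodes with low hybridization controls (2 against 2 arrays) all 9 members were lower with estrogen, with a median difference of −1.47, and in the pair with high controls (1 against 1) 8 of 9 were lower, with a median of −0.94 and ARRDC3 at 0.03. In that pair the array with estrogen was the node of mouse 11, which the first principal component set apart. The share of all genes lower within each kind of array was not counted. Of the luminal markers 7 of 9 were lower with estrogen in nodes, with a median of −0.49 (limma called 0, with 3 at an unadjusted p below 0.05). Their mean per array was 9.11 to 10.05 with estrogen and 10.28 to 10.54 after withdrawal, without overlap, and their part in the members' node differences was not tested.

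In the primary tumors 3 of the 9 were called lower and 6.94% of all genes were. At an unadjusted p below 0.05, 7 of the 9 were lower, against 20.9% of all genes. All 9 differences were below 0, against 55.9% of all genes, and all 9 were lower without overlap, where groups of 2 and 2 arrays gave 38.3% of all genes. The median difference of the members was −1.96, against −0.10 for all genes. Brighter genes were lower with estrogen as a whole at this site. The median difference of all genes was −0.12 at a mean signal of 4 to 6 and −0.77 at 6 to 8. It was −1.31 at 8 to 10 and −1.90 at 10 to 15. CCNG2 and TXNIP, with mean signals of 8.38 and 9.29, lay in the band of 8 to 10 with BTG1 (9.43). LAMB2 (6.55), BLNK (6.49) and PDCD4 (7.13) lay in the band of 6 to 8. PDCD4 at −1.10 was thus nearer to its band's median than LAMB2 at −1.96. In nodes the median of each band lay between −0.16 and 0.03. The luminal markers were lower with estrogen in the primary tumors too: 8 of 9 had a negative difference, 4 of them called, with a median of −2.65 (−0.89 after quantile normalization), and their mean was 8.07 and 8.29 on the arrays with estrogen and 10.33 and 10.43 on those after withdrawal. Their part in the members' differences was not tested.

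After quantile normalization only CCNG2 of the 9 was called in the primary tumors, with 0.6% of all genes called lower, and 8 of 9 were lower without overlap, against 26.7% of all genes. The median of the members was then −1.37. The calls needed all 4 primary tumor arrays: with any 1 of them left out limma called 0 of the 9, although 3 to 7 were still lower at an unadjusted p below 0.05. In those fits the share of all genes called lower was 0.0582% without mouse 11, 2.53% without mouse 14, 0.839% without mouse 10 and 0% without mouse 19. Without the node array of mouse 11, 6 of 9 were called, with 18.5% of all genes called lower.

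**Figure D2:**
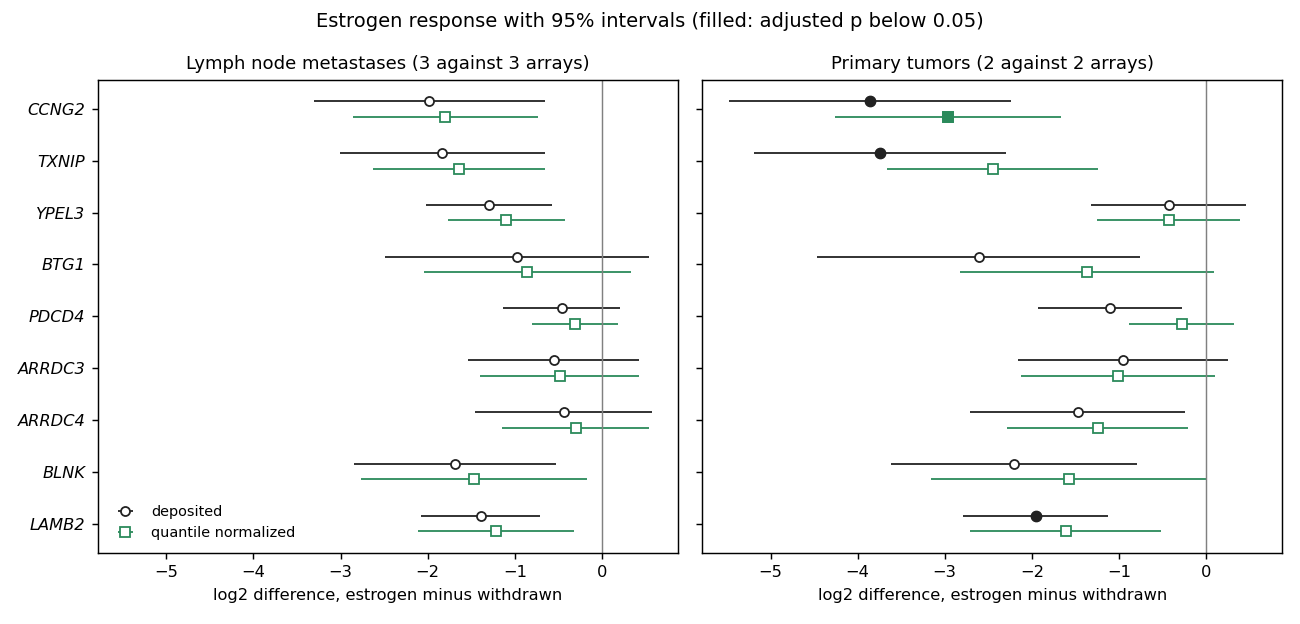
Estrogen minus withdrawn difference in log2 signal (x axis) for each gene (y axis) in nodes and in primary tumors, with 95% intervals from the fit, as deposited (circles) and after quantile normalization (squares), filled where the adjusted p was below 0.05. Every point lies below 0, and CCNG2 in primary tumors is the only one filled on both scales.

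Averaged over both sites, CCNG2 fell by 2.92 ± 0.45 (adjusted p = 0.0143), TXNIP fell by 2.79 ± 0.40 (adjusted p = 0.0122), BLNK fell by 1.95 ± 0.39 (adjusted p = 0.028) and LAMB2 fell by 1.68 ± 0.23 (adjusted p = 0.0105). These were 4 of the 9 members, and 7.04% of all genes were called lower in this comparison. The other 5 had differences between −1.79 for BTG1 and −0.75 for ARRDC3, with adjusted p from 0.0664 to 0.189. After quantile normalization CCNG2 (−2.38, adjusted p = 0.0184), TXNIP (−2.05, adjusted p = 0.0227) and LAMB2 (−1.41, adjusted p = 0.0439) were called, with 2.1% of all genes, and BLNK was not (−1.52, adjusted p = 0.0873). Single arrays decided several of these calls. Without the primary tumor of mouse 11 limma called 0 of the 9, with 8 at an unadjusted p below 0.05 and 0.0582% of all genes called lower. Without that of mouse 14 LAMB2 alone was called, with 1.45% of all genes called lower, and without that of mouse 19 TXNIP and LAMB2 were, with 1.12%. BLNK also lost its call without the nodes of mouse 6, 9 or 10, where CCNG2, TXNIP and LAMB2 were called beside 2.77%, 1.06% and 1.51% of all genes.

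Whether the response differed between the sites was tested directly, as the node response minus the primary tumor response. limma called 0 of the 9 (0.0116% of all genes were called lower and 0% higher), and 1, TXNIP, had an unadjusted p below 0.05, against 10.8% of all genes. With the hybridization controls as a covariate 5 members, CCNG2, TXNIP, BTG1, PDCD4 and ARRDC4, were called higher, with 20% of all genes, and without the node array of mouse 11 BTG1 was, with 8.4%. For 8 of 9 the estimate was above 0, which is a smaller drop with estrogen in the node, as for all but 40.2% of all genes, and YPEL3 was the exception at −0.86 ± 0.51 (95% interval −2.03 to 0.30). The largest estimates were 1.91 ± 0.83 for TXNIP (0.01 to 3.81, adjusted p = 0.458) and 1.88 ± 0.93 for CCNG2 (−0.25 to 4.01, adjusted p = 0.525). All genes with a mean signal of 8 to 10, the band of TXNIP and CCNG2, had a median of 1.10 as deposited. After quantile normalization the estimates were 0.81 ± 0.71 for TXNIP and 1.16 ± 0.76 for CCNG2, and 7 of 9 were above 0. A p that misses the threshold does not show that the responses were alike, and the deposited intervals of TXNIP and CCNG2 both reach past 3 log2 units.

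The site comparison within each pellet state gave a different order of genes. With estrogen, LAMB2 was higher in the node than in the primary tumor by 1.94 ± 0.34 (95% interval 1.17 to 2.71, adjusted p = 0.0126). It was the 1 member called of 9, where 7.81% of all genes were called higher. All genes with a mean signal of 6 to 8, the band of LAMB2, had a median of 0.79 in this comparison. The LAMB2 difference was between 1.66 and 2.26 with any 1 array left out. Its call was lost without the node of mouse 6 (adjusted p = 0.0564) or the primary tumor of mouse 11 or 14. Of the 9 genes, 6 were higher in the node without overlap, namely CCNG2, YPEL3, PDCD4, ARRDC3, ARRDC4 and LAMB2, against 28% of all genes. After quantile normalization this held for 3 of them, YPEL3, ARRDC3 and LAMB2, against 13.5% of all genes, and the LAMB2 difference of 1.62 ± 0.45 was not called (adjusted p = 0.19), with 0.0932% of all genes called higher. For ARRDC3 the gap was narrow and dim: as deposited, its lowest node with estrogen was 2.23 and its highest primary tumor 2.21. Both lie below the array medians of 2.70 to 2.83.

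After withdrawal limma called 0 of the 9 and 0% of all genes by site. Here 2 genes, YPEL3 and LAMB2, were higher in every node than in either primary tumor, against 20.8% of all genes, and both also had an unadjusted p below 0.05, against 10% of all genes. YPEL3 differed by 1.53 ± 0.36 (95% interval 0.71 to 2.36, adjusted p = 0.229) and LAMB2 by 1.37 ± 0.34 (0.60 to 2.15, adjusted p = 0.25). Quantile normalization left them at 1.29 and 1.22, still without overlap, as for 17.6% of all genes. CCNG2 (−0.43), TXNIP (−1.08), BLNK (−0.44) and the other members overlapped between the sites.

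The 4 mice with both sites allowed the same comparison within a mouse. The LAMB2 signal of the node exceeded that of the primary tumor by 2.33 and 1.46 in mice 11 and 14 with estrogen and by 1.48 and 1.46 in mice 10 and 19 after withdrawal. For YPEL3 the excess was 0.97 and 0.27 with estrogen and 1.38 and 0.98 after withdrawal. Both were higher in the node in 4 of 4 mice, also after quantile normalization. The share of all genes higher in 4 of 4 mice was not counted. By group means 32.4% of all genes were lower in nodes with estrogen and 43.4% after withdrawal, as deposited, so most genes were higher there. TXNIP was lower in the node in 3 mice, with −1.39, −0.28 and −1.70 in mice 10, 11 and 19, and higher by 1.78 in mouse 14. CCNG2 spread from −1.86 in mouse 19 to 2.52 in mouse 14. LAMB2 is also made by stromal cells and vessels, and the stromal and endothelial markers averaged 2.87 to 3.29 and 3.05 to 3.92 per array. Of the 8 stromal markers 5 passed the filter on dim genes and 1, COL1A1, had a mean above 5. COL1A1 gave 6.33 to 7.54, with means of 6.93 in nodes and 6.63 in primary tumors with estrogen, and 7.48 and 6.81 after withdrawal. COL1A2 stayed between 2.09 and 2.87. The host's stroma is mouse and the probe sets are human, and the part of stroma in the LAMB2 signal was not tested.

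**Figure D3:**
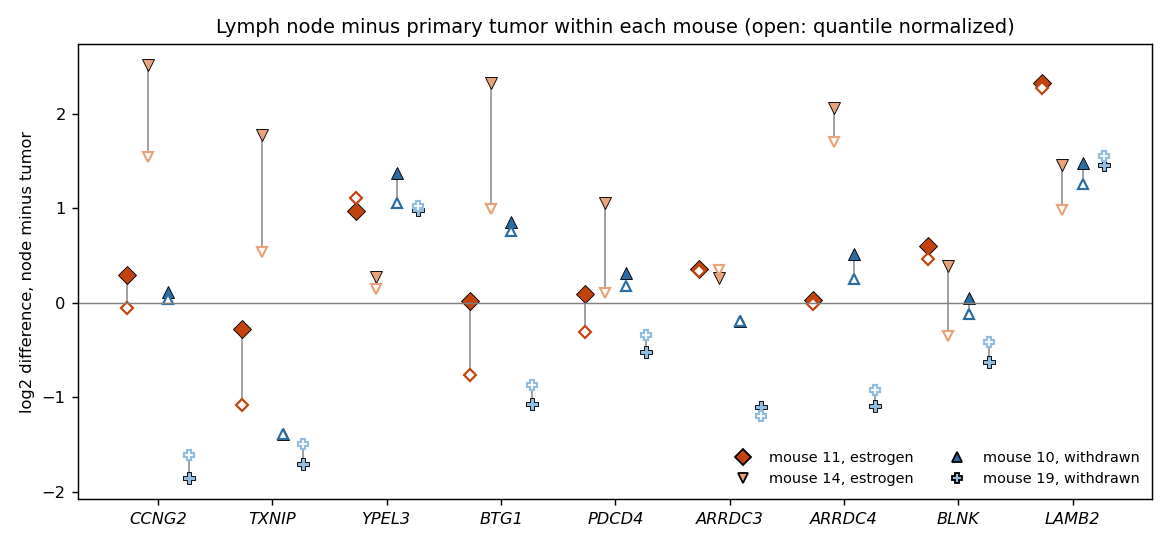
Lymph node minus primary tumor difference in log2 signal (y axis) within each of the 4 mice with both sites, for each gene (x axis), as deposited (filled) and after quantile normalization (open, joined by a line). LAMB2 and YPEL3 lie above 0 in all 4 mice, while the other genes have mice on both sides of 0 on at least 1 of the scales.

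The other probe sets of the same genes were read for a check of the single probe set behind each value. In the nodes 22 of the 25 probe sets were lower with estrogen, and in the primary tumors 23 were, against 49.2% and 50.3% of all probe sets. For TXNIP and YPEL3 all 3 probe sets were lower at both sites, from −1.83 to −0.53 for TXNIP and from −1.34 to −0.32 for YPEL3 in nodes. For CCNG2 4 of 5 were lower at both sites, from −1.98 to 0.04 in nodes and from −3.86 to 0.27 in primary tumors. Its 2 probe sets near 0 had mean signals of 2.48 and 2.40, close to the array medians of 2.70 to 2.83. For PDCD4 6 of 7 were lower at both sites, and for BTG1 2 of 3 in nodes and 3 of 3 in primary tumors. When all 61359 probe sets were tested, limma called 3 of the 25 in the primary tumors, 1 each of CCNG2, TXNIP and LAMB2, against 1.57% of all probe sets called lower. After quantile normalization it called 0 of the 25 there, against 0.117% of all probe sets called lower. With the mean of all probe sets of a gene, as deposited, LAMB2 was the 1 member called there, and 595 of 16638 genes were called lower.

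**Figure D4:**
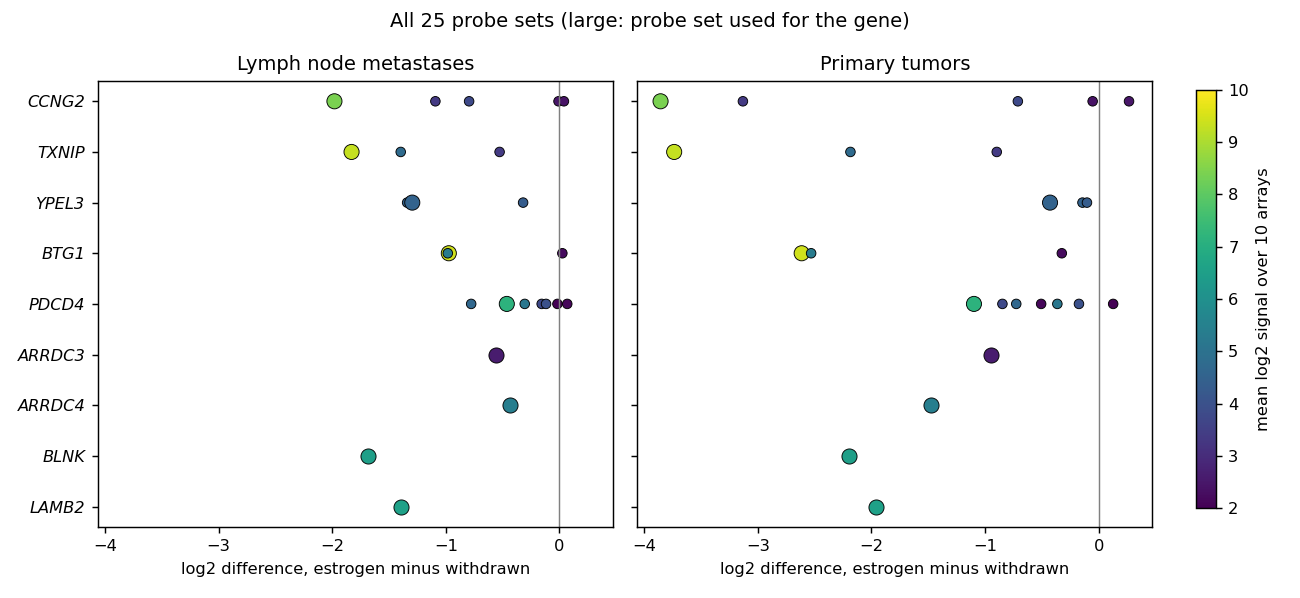
Estrogen minus withdrawn difference in deposited log2 signal (x axis) for all 25 probe sets by gene (y axis), in nodes and in primary tumors, colored by mean signal over the 10 arrays. Large points are the probe sets used for the genes, and the points at or above 0 are among the dimmest, with mean signals below 3.

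The 9 genes were also compared with each other across the 10 arrays. All 9 were lower with estrogen at both sites, which by itself favors positive correlations, and the share of positive pairs among other genes was not counted. After quantile normalization the Pearson correlation was above 0 in 36 of 36 pairs, with a median of 0.599, as a description over arrays that share mice, pellet state and site. It was highest for CCNG2 and TXNIP (0.921), for YPEL3 and LAMB2 (0.871) and for CCNG2 and ARRDC4 (0.84). It was lowest for BTG1 and BLNK (0.274) and for TXNIP and YPEL3 (0.297). Outside the set, the genes most like the mean standardized profile of the members over the 10 arrays were ENTPD5 (r = 0.975), GORASP1 (0.967), CREB3L4 (0.960), RNF43 (0.947) and SEC16A (0.946). ENTPD5 is an enzyme of the endoplasmic reticulum, GORASP1 stacks the Golgi, CREB3L4 is a transcription factor of the secretory pathway, SEC16A organizes the sites where transport vesicles leave the endoplasmic reticulum, and RNF43 removes Wnt receptors from the cell surface. RNF43 was 7.46, 6.99 and 7.64 in the 3 nodes with estrogen and 9.60, 9.03 and 9.24 in the 3 after withdrawal. These genes were picked for this profile, so their values are given without a test.

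The closest relatives and partners of the members were read from 10 lists, of which 75 genes were tested. In the nodes 44 of the 75 were lower with estrogen, against 52.2% of all genes, and limma called none, with 13 at an unadjusted p below 0.05. In the primary tumors 54 were lower and 16 were called lower, against 55.9% and 6.94% of all genes, and none was called higher. After quantile normalization 42 were lower and 2, CASP9 and MUC1, were called, with 0.6% of all genes called lower. Of those 16, 0 were called without the primary tumor of mouse 11 or 19, 4 without mouse 14 and 3 without mouse 10, while all 16 stayed lower at an unadjusted p below 0.05. Among relatives of BTG1, all 5 tested of the BTG and TOB family with the deadenylases CNOT7 and CNOT8 were lower in primary tumors (median −1.43), and 4 of 5 were after quantile normalization (median −1.52). TOB1, an antiproliferative relative of BTG1, fell by 3.61 ± 0.83 there (adjusted p = 0.0365), while quantile normalization gave −2.49 (adjusted p = 0.103). Among the 4 other YPEL genes 3 were lower at each site. YPEL5 fell by 1.73 ± 0.33 in primary tumors (adjusted p = 0.0216; −0.56 after quantile normalization) and differed by −1.37 ± 0.27 in nodes (adjusted p = 0.239). Of the other alpha-arrestins, ARRDC1 differed by 0.24 and ARRDC2 by −0.02 in primary tumors, and after quantile normalization by 0.58 and 0.73, with no call by limma and 0 at an unadjusted p below 0.05.

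Of the 10 tested cell cycle brakes, 8 were lower in the primary tumors with a median of −1.67 (−0.72 after quantile normalization), and 2 were called. CDKN1B, the inhibitor p27 of the cyclin-dependent kinases, fell by 2.90 ± 0.73 (adjusted p = 0.0477), and RBL2, the pocket protein p130 of resting cells, fell by 3.14 ± 0.75 (adjusted p = 0.0403). Only 1 of the 2 RBL2 probe sets was lower. Of the 14 tested genes of FOXO and quiescence programs 10 were lower, with 3 called: FOXO3 by −2.04, SESN1 by −1.40 and BCL2L11 by −1.20. After quantile normalization their median was −0.02. BCL2L11 had 3 of 7 probe sets lower, and the mean of all its probe sets was 0.17 higher with estrogen. FOXO3 had 5 of 7 lower. TXN, the thioredoxin that TXNIP binds, differed by −2.22 ± 0.52 in primary tumors (adjusted p = 0.0368) but by −0.39 after quantile normalization. EIF4A2, a helicase that PDCD4 binds, fell by 3.24 ± 0.52 (adjusted p = 0.015), with 2 of 3 probe sets lower, and was at −1.58 after quantile normalization (adjusted p = 0.0845). RPS6KB1, the kinase that marks PDCD4 for degradation, fell by 3.18 ± 0.59 (adjusted p = 0.0211) and was at −1.41 after it (adjusted p = 0.14). TXN, EIF4A2 and RPS6KB1 were bright, with mean signals of 11.12, 10.90 and 10.88. All genes with a mean signal of 10 to 15 had a primary tumor median of −1.90.

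The 12 tested laminin chains and laminin receptors had a median of −0.03 in nodes and 0.04 in primary tumors, with 6 lower and 6 higher at each site. LAMA5, 1 of the laminin alpha chains, was the 1 called, at −2.02 ± 0.35 in primary tumors (adjusted p = 0.0179), with 1 of its 2 probe sets lower, and it stood at −0.30 after quantile normalization and at −0.09 in nodes. The 6 tested BLNK partners had medians of −0.09 in nodes and −0.83 in primary tumors, where the adaptors GRB2 (−2.28) and NCK1 (−1.95) were called, with 2 of 3 and 2 of 4 probe sets lower, and neither was after quantile normalization. LAMA5 and GRB2 had mean signals of 10.64 and 11.10, in the band of 10 to 15 with its primary tumor median of −1.90. The 10 other genes listed as repressed by estrogen had medians of −0.81 and −0.88, nearest among these lists to the members in the nodes. This list too was chosen with earlier results of these data known, so its nearness is a description. MUC1, a mucin of luminal epithelium, fell by 2.92 ± 0.32 in primary tumors (adjusted p = 0.00603; −1.73, adjusted p = 0.0427 after quantile normalization) and differed by −2.29 ± 0.26 in nodes (adjusted p = 0.0875). CASP9, the caspase that starts mitochondrial apoptosis, fell by 2.01 ± 0.34 in primary tumors (adjusted p = 0.0163; −1.62, adjusted p = 0.0335 after quantile normalization), with 1 of its 3 probe sets lower. EFNA1, the ligand ephrin-A1, fell by 2.66 ± 0.64 there (adjusted p = 0.041; −1.81, adjusted p = 0.0901 after quantile normalization).

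**Figure D5:**
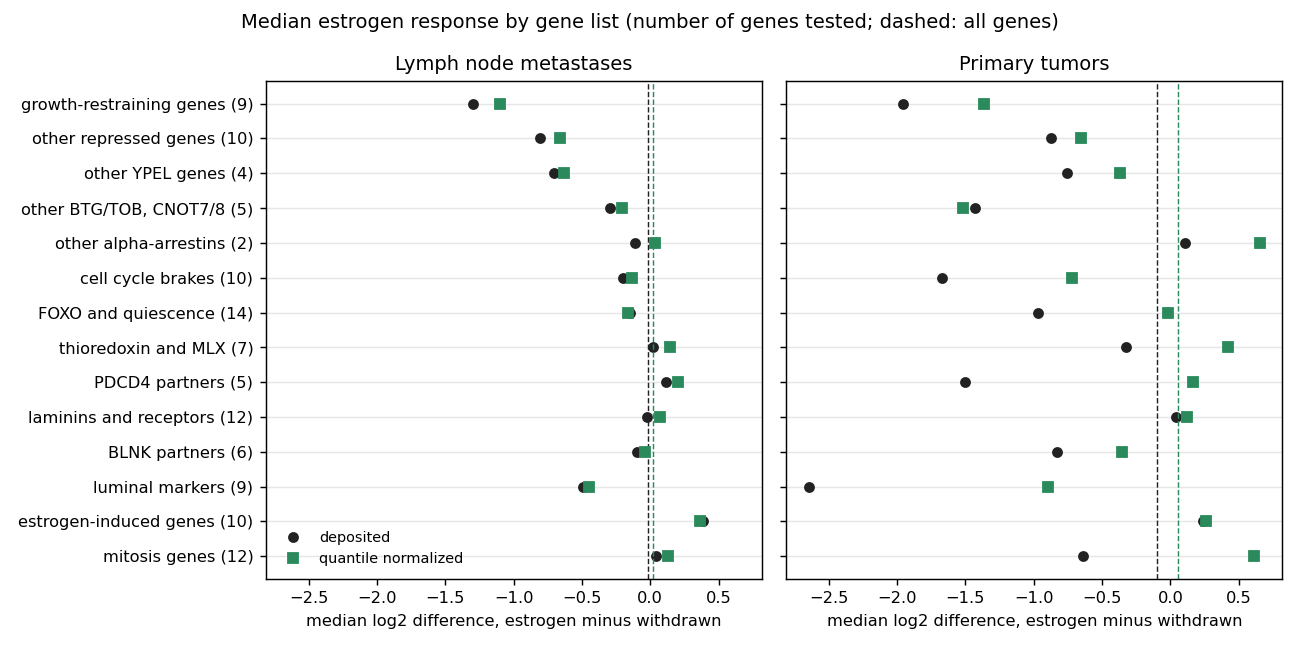
Median estrogen minus withdrawn difference in log2 signal (x axis) for the 9 growth-restraining genes and 13 related lists (y axis, with the number of genes tested), in nodes and in primary tumors, as deposited (circles) and after quantile normalization (squares), with dashed lines at the medians of all genes. In nodes the growth-restraining genes lie lowest at −1.30, while in primary tumors the luminal markers lie lowest as deposited at −2.65.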

How the data were processed

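Log2 signal was deposited by the authors as 1 value per probe set for 10 human arrays of tumor cells from mice. Partek and RMA are named, without versions, per the submitters' processing notes. RMA corrects background, normalizes arrays and summarizes probes, and PCR amplification of captured RNA can add noise. Arrays carry no counts, and precision is limited by the number of arrays.

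Genes were assigned through the platform annotation, whose symbols can be old: 44532 had 1 symbol and 1492 several. Each of 19556 genes was represented by its single-symbol probe set with the highest mean over all arrays, with a floor at a mean of 2.311 log2, the 25th percentile over probe sets, which removed 2386 genes and left 17170. All 9 measured members passed. limma 3.58.1 in R 4.3.3 (lmFit, eBayes) was fitted to all 10 arrays with 1 mean per group and mouse as a random block, with Benjamini-Hochberg adjustment over all genes and calls at an adjusted p below 0.05. Differences carry the SE of the fit and 95% intervals. Quantile normalization between arrays was the main alternative. The fit was also run on simulated data with known differences and independent noise. Those data lacked the narrower range, the hybridization control split and the shared mice of these arrays, so they do not test the calls under these conditions.

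The mouse number pairs arrays of 1 animal. The correlation of the paired arrays' deviations from their group means was 0.176, −0.208, −0.21 and 0.0831 in mice 10, 11, 14 and 19.

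The members and the 18 gene lists with 156 other genes were chosen with earlier results of these data known. Members were always named. Of each other list the rule named every gene called in an estrogen comparison, otherwise the 2 with the greatest absolute moderated t, and the 5 genes of the most similar profile.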

Additional observations from a re-analysis of the deposited data

How the results depend on the processing

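No member changed sign in either estrogen response under any of 20 alternatives. In nodes no member was called under any of them. In primary tumors CCNG2 was called under 15 of 20, LAMB2 under 15 and TXNIP under 14. Leaving out mouse as a block (the fit without a replicate block) changed no member's call and gave 1367 called genes in primary tumors against 1342. The cause of the shifts below was not tested.

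Quantile normalization gave 236 called genes in primary tumors, 1 for the difference of responses (2 as deposited), 639 for the mean response (1376) and 87 for the site with estrogen (1504), with member medians of −1.37 in primary tumors and −1.11 for the mean response. Without a filter the difference of responses had 4 calls. With the mean of all probe sets of a gene, calls were 2 in nodes, 694 in primary tumors, 1 for the difference, 773 for the mean, 843 for the site with estrogen and 1 after withdrawal, and member medians were −0.77 in nodes, −1.50 in primary tumors, −1.13 for the mean and 0.42 for the site with estrogen. With a trend and robust variances the difference had 0 calls and the site after withdrawal 3. With the hybridization controls as a covariate, calls were 6 in nodes, 5994 in primary tumors, 4049 for the difference, 5244 for the mean, 4982 for the site with estrogen and 2276 after withdrawal, with member medians of 1.36 for the difference and −0.71 for the site after withdrawal. With only the compared arrays, 3685 genes were called in primary tumors and 0 for the site with estrogen.

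Leaving out 1 array at a time gave 0 to 9 called genes in nodes, 5 to 3564 in primary tumors, 0 to 1543 for the difference, 15 to 2717 for the mean, 181 to 3850 for the site with estrogen and 0 to 42 after withdrawal. The lowest counts came without a primary tumor array, 5 without mouse 19 and 15 and 181 without mouse 11, and 3564, 1543 and 3850 came without the node array of mouse 11. Member medians ranged from −1.38 to −0.95 in nodes, −2.07 to −1.27 in primary tumors, 0.56 to 1.40 for the difference, −1.71 to −1.36 for the mean, 0.50 to 1.28 for the site with estrogen and −0.35 to 0.45 after withdrawal. Quantile normalization without that node array, chosen after seeing the data, gave 7 called genes in nodes, 1901 in primary tumors, 38 for the difference, 845 for the mean, 471 for the site with estrogen and 1 after withdrawal, with member medians of −1.35 in primary tumors, −0.90 for the mean and 0.44 for the site with estrogen.

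Among other named genes signs turned as follows. With quantile normalization TXN in nodes was 0.0044 and ARRDC2 in primary tumors 0.73, and with the hybridization controls ARRDC2 was 0.078. With the mean of all probe sets RPS6KB1 (0.0011) and LAMA5 (0.057) turned in nodes and BCL2L11 (0.17) in primary tumors. Leaving out single arrays, node values ranged from −0.31 to 0.32 for ARRDC1, −0.93 to 0.15 for CDKN1B, −0.15 to 0.21 for SESN1, −0.065 to 0.28 for BCL2L11, −0.41 to 0.43 for TXN, −0.11 to 0.98 for TXNRD1, −0.79 to 0.11 for RPS6KB1, −0.20 to 0.090 for LAMA5 and −1.57 to 0.49 for ITGB1, and primary tumor values from −0.18 to 0.13 for ARRDC2 and −0.0019 to 0.45 for ARRDC1. In the added setting ARRDC1 was −0.31, CDKN1B 0.088, TXN 0.41, RPS6KB1 0.049 and ITGB1 0.45 in nodes, and ARRDC2 0.74 in primary tumors.

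Groups of 2 and 3 arrays limit every comparison, and ARRDC3, near the array median, was removed by a filter at the median.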

Other observations

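Genes of cell division and genes that estrogen induces were read beside the growth-restraining genes. Of 12 mitosis genes 7 were higher with estrogen in nodes, with a median difference of 0.04 and no call by limma (0 at an unadjusted p below 0.05). In primary tumors 3 of 12 were higher with a median of −0.64, which became 8 of 12 and 0.61 after quantile normalization, again with no call (2 and 3 at an unadjusted p below 0.05). CDK1, the kinase that drives entry into mitosis, differed by −1.97 ± 0.62 in primary tumors (adjusted p = 0.0863) and by −0.25 after quantile normalization. Of 10 genes that estrogen is known to induce, 8 were higher with estrogen in nodes with a median of 0.39. In primary tumors 6 were higher and 4 lower, and over both sites 5 were higher and 5 lower. XBP1, a transcription factor that is also on the luminal marker list, was called lower in primary tumors and over both sites, by −2.21 and −1.28, and was not called at either after quantile normalization (−0.69 and −0.57). All genes with a mean signal of 10 to 15, where XBP1 lay at 12.97, had a primary tumor median of −1.90. GREB1, CA12 and PDZK1 rose over both sites, by 2.63, 2.00 and 1.46. CA12, a carbonic anhydrase, stayed called after quantile normalization (2.57 ± 0.45, adjusted p = 0.0267), and PDZK1, a scaffold protein, missed the threshold there (1.55 ± 0.36, adjusted p = 0.052). Without mouse as a block CA12 and PDZK1 also missed it, with adjusted p of 0.0509 and 0.0535. The same held without a filter (0.0581 and 0.0556) and with the mean of all probe sets of a gene (0.117 and 0.0565). Both also lost their calls without the node of mouse 6, 9, 10 or 19 (adjusted p in limma from 0.0590 to 0.112). With any 1 array left out CA12 was between 1.31 and 2.64 higher and PDZK1 between 1.13 and 1.75.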
